A study of Mus musculus with 12 samples.

Results

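Integrins are heterodimers of an alpha and a beta subunit that span the plasma membrane, bind matrix proteins outside the cell and connect to actin inside it. Here the transcripts of 10 subunit genes of 2 classes were followed in 10T1/2 cells, an established mouse mesenchymal progenitor line. The RGD-binding class recognises the short motif Arg-Gly-Asp in fibronectin, vitronectin and latent TGFβ, and comprised Itga5, Itgav, Itga8, Itgb3, Itgb5 and Itgb8. The laminin-binding class anchors cells to basement membrane and comprised Itga3, Itga6, Itga7 and Itgb4. The genes were taken by symbol, with earlier results of these data known, and they are 10 of the 56748 genes in the count table. All 10 had enough counts to be tested, among 16465 genes tested.

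The cells, wild type in every group, were serum starved (0.5% FBS), held for 1 h in suspension and then plated for 18 h on 12 kPa plates that carried a coat of type I collagen (0.05 mg/mL). The 4 col1 libraries came from cells on this collagen alone. The 4 col1-ACLP libraries came from cells on collagen polymerized with recombinant aortic carboxypeptidase-like protein (ACLP), a secreted collagen-binding matrix protein, at 30 nM. The 4 col1-ACLP+SB libraries had the same matrix plus SB431542, an inhibitor of the TGFβ type I receptor kinase ALK5. No group had the inhibitor on collagen without ACLP, so its own action on these genes cannot be told apart from its action together with ACLP. All 3 groups stood on collagen, which neither class takes as its main ligand. The study describes the 4 libraries of a group as biological replicates, all of 1 cell line.

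Itga5 pairs with Itgb1 to form the classical fibronectin receptor. Itgav pairs with Itgb1, Itgb3, Itgb5, Itgb6 or Itgb8, and some of these pairs release active TGFβ from its latent complex. Itga8 pairs with Itgb1 and binds nephronectin. Itga3, Itga6 and Itga7 pair with Itgb1 to form laminin receptors, and Itga6 also pairs with Itgb4, whose long cytoplasmic tail ties epithelial cells to keratin filaments at hemidesmosomes.

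The 10 genes lie on 6 chromosomes, given here with the coordinates of the count table, which match GRCm39. On chromosome 2 are Itga6 (chr2:71575960-71688760, plus strand), Itgav (chr2:83554741-83637260, plus strand) and Itga8 (chr2:12111443-12306733, minus strand). Chromosome 11 holds Itga3 (chr11:94935300-94967627, minus strand), Itgb3 (chr11:104498826-104561302, plus strand) and Itgb4 (chr11:115865535-115899238, plus strand). The others are Itga7 (chr10:128769645-128794155, plus strand), Itgb8 (chr12:119121757-119202537, minus strand), Itga5 (chr15:103252713-103275190, minus strand) and Itgb5 (chr16:33650035-33769708, plus strand). The table gives 1 count per gene, so its exons and untranslated regions cannot be looked at one by one.

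The promoters of the 2 genes with the highest log2 differences between col1-ACLP and col1, Itga6 and Itgb3, and of the gene with the lowest, Itga7, are shown first. Each window holds the 250 bases before the start of the Ensembl canonical transcript, read 5′ to 3′ on the gene's strand from the GRCm39 genome with GENCODE vM39. The capitals mark a GC box (GGGCGG, the Sp1-type motif) or a TEAD motif (GGAATG), each searched on both strands, and in Itgb3 the run of capitals nearest the start is 2 overlapping GC boxes on the opposite strand. The windows are chr2:71616969-71617218 for Itga6, chr11:104498576-104498825 for Itgb3 and chr10:128769371-128769620 for Itga7, all on the plus strand.
Itga6: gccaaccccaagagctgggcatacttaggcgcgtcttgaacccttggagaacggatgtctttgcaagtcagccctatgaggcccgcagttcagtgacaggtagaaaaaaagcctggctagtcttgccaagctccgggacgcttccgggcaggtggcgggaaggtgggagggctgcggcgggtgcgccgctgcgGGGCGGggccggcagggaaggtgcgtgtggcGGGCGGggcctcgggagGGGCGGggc
Itgb3: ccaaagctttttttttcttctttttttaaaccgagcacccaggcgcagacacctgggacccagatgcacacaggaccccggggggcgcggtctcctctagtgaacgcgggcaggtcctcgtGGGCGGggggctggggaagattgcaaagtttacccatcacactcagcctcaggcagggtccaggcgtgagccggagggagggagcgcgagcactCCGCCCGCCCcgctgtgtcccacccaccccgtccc
Itga7: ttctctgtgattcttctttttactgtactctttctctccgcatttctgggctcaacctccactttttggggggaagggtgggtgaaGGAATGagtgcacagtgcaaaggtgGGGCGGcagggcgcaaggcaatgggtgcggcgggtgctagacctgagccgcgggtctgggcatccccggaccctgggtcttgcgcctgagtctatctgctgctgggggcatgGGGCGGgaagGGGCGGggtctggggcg

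The Itga6 and Itgb3 windows each held 3 GC boxes and no other motif searched. Itga7 held 3 GC boxes and 1 TEAD motif, from 164 to 159 bases before its start. GC content was 67.6% for Itga6, 64.4% for Itgb3 and 62.0% for Itga7, and its median over the promoters of 21770 protein-coding genes was 53.2%. A GC box was present in 7 of the 10 members and in 36.3% of all promoters of that length. A TEAD motif was present in Itga7 and Itgb8, 2 of 10, against 12.1% of all promoters. Itgb4 alone held an AP-1 motif (TGANTCA), which 6.17% of all promoters had. The CArG box bound by serum response factor was in 1.4% of promoters and the SMAD element GTCTAGAC in 0.239%, and neither was present in a member's window. These matches describe letters in the windows and carry no measurement of binding. The canonical Itga6 start lies 41259 bases downstream of the gene start given in the count table, and counts per gene do not tell transcripts from different starts apart.

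The 12 libraries held 29246154 to 52201922 counts, and TMM scaling factors ran from 0.966 to 1.02. Of the 12 libraries, col1 replicate 2 stood apart on the first principal component of all tested genes, at -86.7 against -11.1 to -8.97 for the other col1 libraries. All 10 mesenchymal markers were at 1 CPM (counts relative to library size, with TMM factors) or more, with summed levels of 34000 to 35200 CPM on col1, 43900 to 52800 on col1-ACLP and 40500 to 46100 with the inhibitor. The collagens Col1a1 (mean 11904 CPM on col1 and 20962 on col1-ACLP) and Col1a2 (7307 and 11493 CPM) rose on col1-ACLP, whereas Pdgfra, Pdgfrb, Prrx1, Twist1 and S100a4 fell and the other 3 did not pass, so the sum does not stand for the list. Among markers of other cells, 7 of 8 epithelial, 5 of 6 endothelial, 6 of 7 haematopoietic and 4 of 5 skeletal muscle genes were below 1 CPM on average. The exceptions were Cdh1, Tek, Cd68 and Des. Summed haematopoietic markers were 9.14 to 10.5 CPM in col1 libraries and 5.53 to 8.85 CPM in col1-ACLP libraries, and their part in the results was not tested. In bulk RNA, fewer cells with a transcript and less of it per cell cannot be told apart.

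Levels of the 10 subunits spanned a wide range. To compare genes with each other, levels were set per length as FPKM (the CPM divided by the gene length of the count table in kilobases). On col1, Itgb5 stood highest at 91.1 ± 4.54 FPKM (mean ± SD, n = 4), followed by Itga5 at 56.1 ± 1.88 and Itgav at 21.8 ± 0.921. Itgb3 came next at 8.96 ± 0.566 FPKM, and then Itgb4 at 6.87 ± 0.484 and Itga6 at 6.22 ± 0.557, whose library ranges overlapped. Itgb8 at 1.44 ± 0.240 and Itga7 at 1.26 ± 0.0899 FPKM overlapped as well. Itga3 at 0.918 ± 0.104 and Itga8 at 0.316 ± 0.0665 FPKM were lowest, and mean Itgb5 was 288 times mean Itga8. The top place depends on the gene length: all exon bases of Itgb5 in GENCODE vM39, merged, come to 1.99 times the length in the count table, and with such lengths Itga5 (52.0 ± 1.74 FPKM) stood above Itgb5 (45.8 ± 2.29) on col1, while Itgb5 was above Itga5 in both groups with ACLP. Itgb4 (6.68 ± 0.470) was then above Itga6 (4.99 ± 0.447) on col1, without overlap. With either length, which was compared after seeing the data, the cells on collagen alone held, among RGD-binding alpha subunits, mostly Itga5 and Itgav transcripts, and among laminin-binding alpha subunits mostly Itga6.

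On col1-ACLP, Itga6 stood at 9.97 ± 0.130 FPKM and Itgb4 at 8.52 ± 0.337, without overlap, but with merged exon lengths the 2 overlapped at 8.01 ± 0.105 and 8.28 ± 0.328. Itgb5 (115 ± 4.82 FPKM), Itga5 (51.9 ± 2.61), Itgav (27.9 ± 0.669) and Itgb3 (13.0 ± 0.894) kept the upper places, each separated from the next. At the lower end Itgb8 was at 1.16 ± 0.152 FPKM, Itga7 at 0.851 ± 0.126 and Itga3 at 0.846 ± 0.105, and the last 2 overlapped. On col1-ACLP+SB, Itga6 at 7.89 ± 0.720 and Itgb4 at 7.62 ± 0.787 FPKM again overlapped, and so did Itga7 (1.14 ± 0.124) with Itgb8 (1.02 ± 0.131) and Itgb8 with Itga3 (0.834 ± 0.125). Itga8 stayed last in every group, at 0.289 ± 0.0818 FPKM on col1-ACLP and 0.326 ± 0.116 with the inhibitor.

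**Figure D1:**
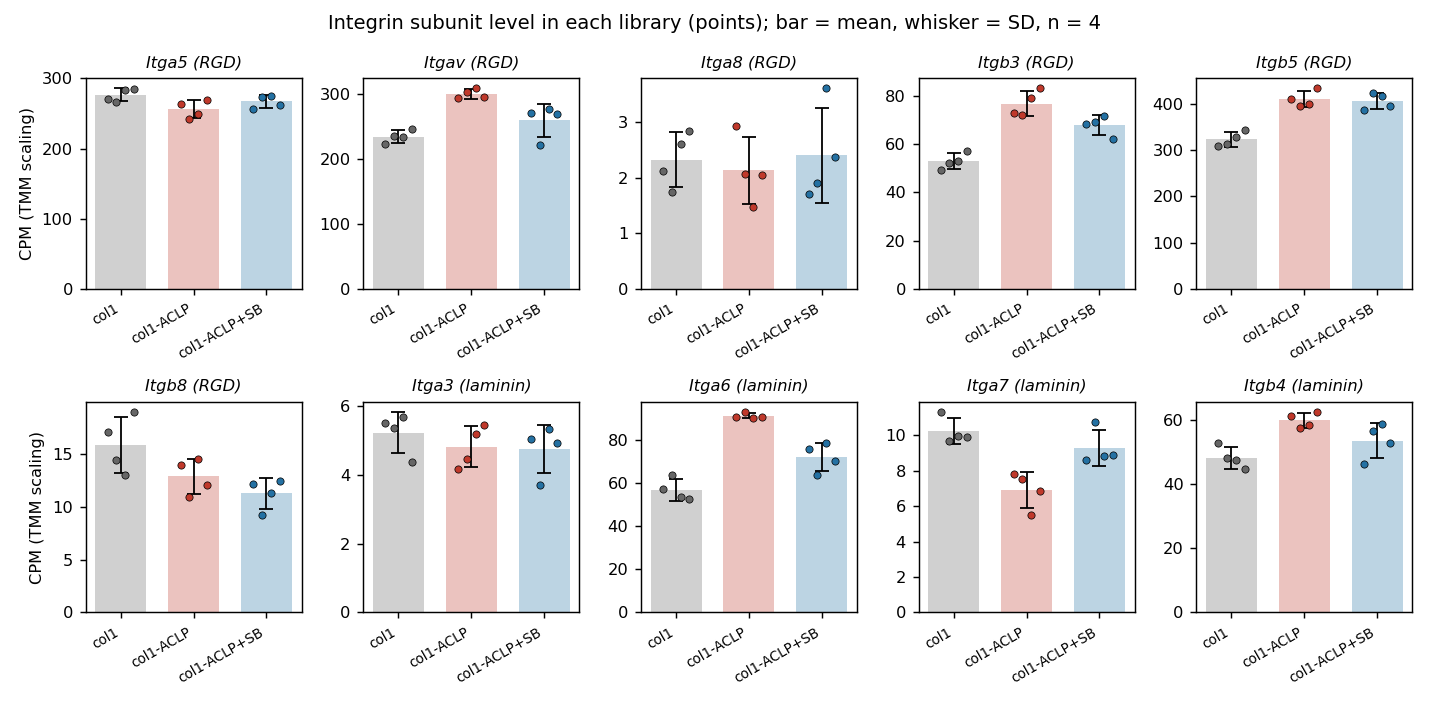
Each panel plots 1 subunit in CPM for the 12 libraries (points), with the group mean as a bar and the SD as a whisker (n = 4). Itga6, Itgav, Itgb3, Itgb4 and Itgb5 were above every col1 library in each of the 4 col1-ACLP libraries, and Itga7 sat lower.

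The first question of the design is what ACLP in the collagen changes. In col1-ACLP against col1, 5 of the 10 subunits rose, namely Itga6, Itgb3, Itgav, Itgb5 and Itgb4, and Itga7 fell. The other 4 did not pass the test. A gene passed when edgeR's quasi-likelihood p, corrected by the Benjamini-Hochberg method over all tested genes, was under 0.05. Over all genes, 17.9% passed, 9.52% as higher and 8.41% as lower. The same 6 subunits were the ones whose groups did not overlap, 5 higher and 1 lower, against 21.2% of all genes (10.9% higher and 10.3% lower). The median log2 difference was 0.0999 over the 10 subunits and -0.00987 over all genes tested. With the study's further threshold, a log2 fold change beyond 0.58 in size, 1 subunit remained, Itga6, against 4.97% of all genes. All 6 calls held in each of the 12 fits that left out 1 library, col1 replicate 2 included.

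Among the RGD-binding alpha subunits, Itgav rose. It stood at 222, 235, 233 and 246 CPM in col1 replicates 1 to 4 and at 293, 303, 308 and 295 CPM in those of col1-ACLP. The lowest col1-ACLP library was above the highest col1 library, and the log2 difference was 0.36 (standard error 0.0568, adjusted p = 4.07e-05, edgeR's quasi-likelihood test). Itga5, its neighbour in level, ran from 266 to 285 CPM on col1 and from 242 to 269.6 CPM on col1-ACLP, with overlap. Its log2 difference was -0.11 (adjusted p = 0.114 in the edgeR test), with a 95% interval from -0.21 to -0.01. That call depends on the scaling: with library size alone, Itga5 had a log2 difference of -0.16 and an adjusted p of 0.0103. Itga8 had only 44 to 187 counts per library, and its level was 1.75 to 2.84 CPM on col1 and 1.47 to 2.93 CPM on col1-ACLP. The interval of its log2 difference, from -0.75 to 0.50, was the widest of the 10, so that a change of moderate size in Itga8 was not detectable here. Its libraries varied by 21.1 to 35.4% within groups (coefficient of variation), beside a counting error of 7.31 to 15.1%.

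Among the RGD-binding beta subunits, Itgb3 and Itgb5, both partners of Itgav in vitronectin receptors, rose. Itgb3 stood at 49.1, 52.1, 53.2 and 57.2 CPM on col1 and at 73.0, 71.9, 79.1 and 83.1 CPM on col1-ACLP. All col1 libraries lay below the col1-ACLP range, and the mean went from 52.9 ± 3.34 to 76.8 ± 5.28 CPM (log2 difference 0.54, standard error 0.0667, adjusted p = 1.06e-06, same edgeR test). Itgb5 stood at 309, 313, 328 and 345 CPM on col1 and at 411, 395, 400.5 and 434 CPM on col1-ACLP. These groups were apart too, and the log2 difference was 0.34 (standard error 0.0476, adjusted p = 6.08e-06, same edgeR test). Itgb8, the partner in the αvβ8 receptor for latent TGFβ, had 17.1, 14.4, 13.1 and 19.0 CPM on col1 and 14.0, 10.9, 14.6 and 12.0 CPM on col1-ACLP. The Itgb8 ranges overlapped and the difference of -0.30 on the log2 scale did not pass (adjusted p = 0.126, same edgeR test; 95% interval from -0.58 to -0.03).

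Among the laminin-binding subunits, Itga6 rose and Itga7 fell. Itga6 stood at 57.5, 63.8, 53.8 and 52.4 CPM in the col1 libraries and at 90.8, 92.9, 90.1 and 90.8 CPM in the col1-ACLP libraries. The col1-ACLP libraries lay close together, with a coefficient of variation of 1.3% against 8.95% on col1, and far above all of col1. The log2 difference of Itga6 was 0.68 (standard error 0.0691, adjusted p = 3.88e-08, edgeR's quasi-likelihood test), or 1.60-fold. Itga7, the laminin receptor subunit best known from skeletal muscle, stood at 11.3, 9.69, 9.96 and 9.93 CPM on col1 and at 7.79, 7.55, 5.51 and 6.84 CPM on col1-ACLP. Every col1-ACLP library was below every col1 library, and Itga7 fell by 0.56 on the log2 scale (standard error 0.140, adjusted p = 0.00501, same edgeR test). Itga3 was low, at 4.37 to 5.71 CPM on col1 and 4.19 to 5.46 CPM on col1-ACLP, and its log2 difference of -0.12 had a 95% interval from -0.49 to 0.25 (adjusted p = 0.743, same edgeR test).

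Itgb4, the partner of Itga6 alone, rose as well. It stood at 52.8, 47.9, 47.5 and 44.6 CPM on col1 and at 61.2, 57.3, 58.3 and 62.3 CPM on col1-ACLP, with no overlap. The log2 difference was 0.31 (standard error 0.0739, adjusted p = 0.00332, edgeR's quasi-likelihood test). Of the exon bases of Itgb4, 14.9% lie opposite exons of Galk1, the galactokinase gene, and the sources do not give a strand setting for the counting, so that reads on these bases may have gone to either gene or to neither. If none of them were counted, the level of Itgb4 over its remaining exon bases would be 8.07 FPKM on col1, above the Itga6 range, and 10.0 FPKM on col1-ACLP, where the ranges would overlap. This calculation was added after seeing the data, and the order of Itga6 and Itgb4 given above is therefore uncertain. The part of Galk1 reads in the rise of Itgb4 was not tested. The other members shared at most 7.37% of their exon bases with another gene, the highest being Itga3 with a long noncoding RNA on the opposite strand. Itga7 is best known from muscle and Itgb4 from epithelium, and 4 of 5 skeletal muscle markers and 7 of 8 epithelial markers were below 1 CPM here.

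The composition of the laminin-binding alpha subunits changed with these differences, given here as shares of their summed FPKM and without a test. Itga6 made up 74.0 ± 1.86% on col1, 85.5 ± 0.589% on col1-ACLP and 79.9 ± 1.47% with the inhibitor. The share of Itga7 was 15.0 ± 1.36%, 7.28 ± 1.01% and 11.7 ± 2.15% in the same order, and that of Itga3 10.9 ± 1.06%, 7.26 ± 0.935% and 8.42 ± 0.764%. Among the RGD-binding alpha subunits, Itga5 held 71.7 ± 0.722%, 64.8 ± 1.58% and 68.9 ± 2.52%, and Itgav held 27.9 ± 0.745%, 34.9 ± 1.63% and 30.7 ± 2.49%. The summed FPKM of Itga5, Itgav and Itga8 was 78.2 ± 2.57 on col1, 80.1 ± 2.12 on col1-ACLP and 78.6 ± 2.43 with the inhibitor, so the totals of this class differed by less than the spread between libraries. The summed FPKM of Itga3, Itga6 and Itga7 was 8.39 ± 0.609, 11.7 ± 0.178 and 9.86 ± 0.730.

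Among the beta partners of Itgav other than Itgb1, Itgb5 was the main transcript in every group. Its share was 89.7 ± 0.236% on col1, 89.0 ± 0.489% on col1-ACLP and 90.1 ± 0.444% with the inhibitor. Itgb3 held 8.83 ± 0.172%, 10.0 ± 0.430% and 9.07 ± 0.425%, and Itgb8 1.41 ± 0.214%, 0.900 ± 0.123% and 0.808 ± 0.132%. With merged exon lengths, Itgb5 held 83.0%, 82.0% and 83.6% of Itgb3, Itgb5 and Itgb8 together, and Itga6 held 70.0%, 82.8% and 76.5% of the laminin-binding alpha subunits. Summed FPKM of these partners was 101 ± 5.18 on col1, 129.6 ± 5.49 on col1-ACLP and 127 ± 5.26 with the inhibitor.

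**Figure D2:**
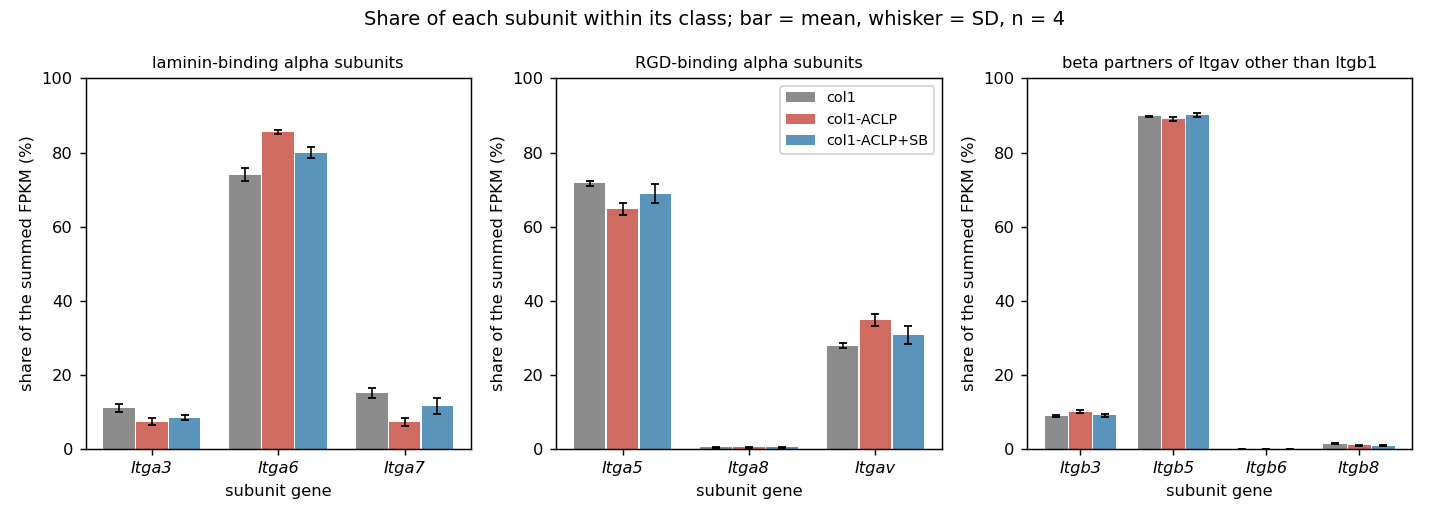
Bars give the mean share of each subunit in the summed FPKM of its class (percent, linear axis from 0) and whiskers the SD over 4 libraries. The Itga6 share was highest on col1-ACLP at 85.5%, and Itgb5 held 89.0% to 90.1% of the beta partners in all 3 groups.

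The second question is which differences from col1 were present when ALK5 was inhibited. In col1-ACLP+SB against col1, Itgb3, Itga6 and Itgb5 rose and Itgb8 fell, and 6 subunits did not pass. Over all genes 9.13% passed, 4.6% as higher and 4.54% as lower. Groups did not overlap for Itgb3 and Itgb5 (higher) and Itgb8 (lower), 3 of 10, against 13% of all genes (6.7% higher and 6.32% lower). The median log2 difference was 0.101 over the 10 subunits and 0.00459 over all genes. All 4 differences were smaller than 0.58 in size, a bound that 2.28% of all genes passed together with the test. This comparison shares its 4 col1 libraries with the one above, so the values of both are set side by side and their likeness is not independent evidence.

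Itgb5 stood at 387, 423, 418 and 395 CPM with the inhibitor, above all col1 libraries, and its log2 difference from col1 was 0.33 (standard error 0.0475, adjusted p = 2.32e-05, edgeR's quasi-likelihood test) beside 0.34 without the inhibitor. Itgb3 stood at 68.3, 69.4, 71.6 and 61.9 CPM, and its log2 difference was 0.36 (standard error 0.0666, adjusted p = 4.90e-04, same edgeR test) beside 0.54. Itga6 stood at 76.0, 63.7, 78.4 and 70.2 CPM, of which replicate 2 lay just within the col1 range, and its difference was 0.34 (standard error 0.0691, adjusted p = 0.00118, same edgeR test) beside 0.68. These 3 subunits were thus above col1 in both matrices with ACLP, and their calls held whichever library was left out.

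Itgav stood at 270.4, 222, 276 and 269 CPM with the inhibitor. Its replicate 2 lay just below the lowest col1 library and the other 3 lay above the col1 range. The log2 difference from col1 was 0.15 and did not pass (adjusted p = 0.121, edgeR's quasi-likelihood test), whereas without col1-ACLP+SB replicate 2 it was 0.22 and passed (adjusted p = 0.00261, same edgeR test). Itgb4 had 46.1, 56.5, 58.7 and 52.6 CPM, overlapping col1, and a log2 difference of 0.15 (adjusted p = 0.256, same edgeR test; 95% interval from -0.0013 to 0.30). Itga7 had 8.60, 10.8, 8.84 and 8.90 CPM and a log2 difference of -0.14 (adjusted p = 0.654, same edgeR test; 95% interval from -0.43 to 0.14).

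Itgb8, which had not passed on col1-ACLP without the inhibitor, fell in this comparison. It had 12.2, 9.23, 11.3 and 12.4 CPM with the inhibitor, below all col1 libraries, and fell by 0.50 on the log2 scale (standard error 0.133, adjusted p = 0.0168, edgeR's quasi-likelihood test). The call was lost when col1 replicate 1, col1 replicate 4 or col1-ACLP+SB replicate 2 was left out, with adjusted p of 0.0541, 0.0932 and 0.0654. Between col1-ACLP+SB and col1-ACLP, Itgb8 did not pass (log2 difference -0.19, adjusted p = 0.635, same edgeR test), so that a difference of Itgb8 between the 2 matrices with ACLP was not shown. Itga5 (257 to 275 CPM), Itga3 (3.73 to 5.34 CPM) and Itga8 (1.71 to 3.61 CPM) overlapped col1, with adjusted p of 0.643, 0.766 and 0.958 in the same edgeR test.

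**Figure D3:**
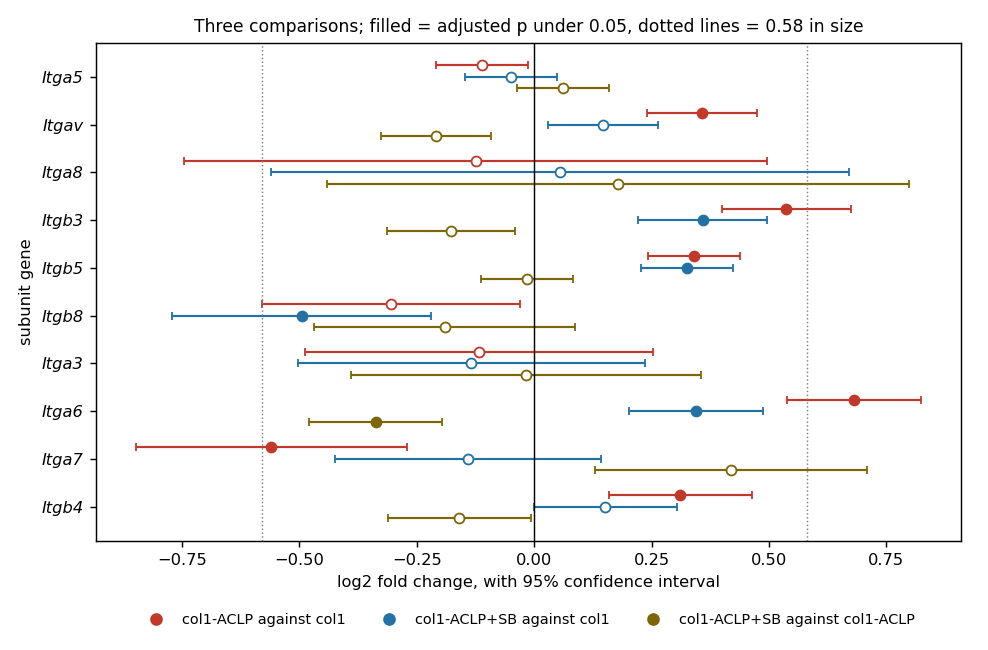
Points give the log2 fold change of each subunit in the 3 comparisons and lines its 95% confidence interval, with filled points at an adjusted p under 0.05 and dotted lines at 0.58 in size. Itga6 is the only subunit with a filled point in all 3 comparisons, at 0.68, 0.34 and -0.34.

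The direct comparison of col1-ACLP+SB with col1-ACLP tests the effect of the inhibitor on cells that both had ACLP. Itga6 fell, by 0.34 on the log2 scale (standard error 0.0687, adjusted p = 0.00986, edgeR's quasi-likelihood test), with all 4 inhibitor libraries below all 4 col1-ACLP libraries, and the highest adjusted p with a library left out was 0.0434. Summed endothelial markers, of which Tek alone reached 1 CPM, ran from 7.52 to 9.85 CPM on col1-ACLP and from 4.5 to 6.41 CPM with the inhibitor, beside 5.06 to 8.35 CPM on col1, and their part in the result was not tested. It was the only subunit of the 10 to pass, against 1.48% of all genes (0.571% as higher and 0.905% as lower), and 0.128% of all genes also went beyond 0.58 in size. No subunit rose by this test, and at an unadjusted p under 0.05 there was 1 higher (Itga7) and 4 lower (Itga6, Itgav, Itgb3 and Itgb4), against 12.8% of all genes (6.19% higher and 6.63% lower). Groups did not overlap for 4 subunits, Itga7 as higher and Itga6, Itgav and Itgb3 as lower, against 8.17% of all genes (3.65% higher and 4.52% lower). The median log2 difference was -0.0884 over the 10 subunits and 0.00485 over all genes.

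Itgav was on the edge of the threshold in this comparison, with a log2 difference of -0.21 (adjusted p = 0.0652, edgeR's quasi-likelihood test). It passed with DESeq2 (adjusted p = 0.0137), with limma-voom (0.0482), with no filter on low counts (0.00908) and without col1-ACLP+SB replicate 3 (0.0392). Itgb3 had -0.18 (adjusted p = 0.214, same edgeR test; 95% interval from -0.31 to -0.04). Itga7 had 0.42 (adjusted p = 0.151, same edgeR test; 95% interval from 0.13 to 0.71), with its 4 inhibitor libraries above all col1-ACLP libraries and 3 of them below all col1 libraries. Itgb4 had -0.16 (adjusted p = 0.352, same edgeR test).

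Itgb5 differed in that its level was close to the same on both matrices with ACLP. The log2 difference was -0.01 (adjusted p = 0.953, edgeR's quasi-likelihood test), with a 95% interval from -0.11 to 0.08. That interval leaves out a fall of the size measured for Itga6. Itga5, with 0.06 (interval from -0.04 to 0.16), was bounded in a similar way, while the intervals of Itga3 (-0.39 to 0.36) and Itga8 (-0.44 to 0.80) were wide.

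Across the 12 libraries, subunits were compared by the Pearson correlation of log2 CPM, a description that includes the differences between groups and the shared scaling of a library. The highest values among pairs of members were 0.934 for Itgb3 with Itgb5 and 0.901 for Itga6 with Itgav, and the lowest were -0.909 for Itga7 with Itgav and -0.833 for Itga6 with Itga7. Among all tested genes, those most like Itga6 were Pappa2 (0.981), a protease of IGF-binding proteins, Cav2 (0.969), a caveolin, and Fstl1 (0.968), a secreted glycoprotein.

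Itgb1, the beta subunit with which Itga3, Itga5, Itga6, Itga7, Itga8 and Itgav can all pair, was also measured. It ran from 917 to 978 CPM on col1, from 1029.6 to 1094 CPM on col1-ACLP and from 946 to 1064 CPM on col1-ACLP+SB. It rose on col1-ACLP by a log2 difference of 0.18 (adjusted p = 0.00261, edgeR's quasi-likelihood test), and the differences of 0.09 with the inhibitor against col1 (adjusted p = 0.230) and of -0.09 between the ACLP matrices (adjusted p = 0.346) did not pass. The other subunits tested numbered 10 of 16 with Itgb1 included, of which 3 rose and 2 fell on col1-ACLP, against 9.52% higher and 8.41% lower over all genes. With the inhibitor against col1, 1 passed, Itga4, against 9.13% of all genes. Its mean was 3.29 CPM on col1 and 1.53 CPM with the inhibitor (log2 difference -1.09, adjusted p = 0.0278, edgeR's quasi-likelihood test). Itga4 had 29 to 110 counts per library with the inhibitor, and its call was not tried with other tools or with a library left out. Of the collagen-binding alpha subunits tested, Itga1 and Itga11 rose, each higher in all 4 libraries, and Itga10, at means of 7.41 CPM on col1 and 5.44 on col1-ACLP, had a log2 difference of -0.44 that did not pass (adjusted p = 0.0956, edgeR's quasi-likelihood test). Itga1 had 0.46 (adjusted p = 2.87e-04, same edgeR test) and Itga11 had 1.48 (adjusted p = 0.00877), its mean being 0.883 CPM without and 2.45 CPM with ACLP. The Itga11 call was lost without col1-ACLP replicate 1 (adjusted p = 0.0559). Itga2b fell by 0.45 on the log2 scale (adjusted p = 0.00570, same edgeR test), and Itgal, at under 1 CPM in mean level, had -2.16 with overlapping groups, a call lost when any 1 of 6 libraries was left out.

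Of 14 genes tested that encode ligands of RGD-binding integrins, 8 rose and 1 fell on col1-ACLP, 6 rose and 1 fell with the inhibitor against col1, and 4 fell between the inhibitor and col1-ACLP. Over all genes, 17.9%, 9.13% and 1.48% passed in these comparisons. Ccn2, a matricellular protein, went from a mean of 47.7 to 132 CPM (log2 difference 1.47, adjusted p = 1.25e-10, edgeR's quasi-likelihood test). Thbs1, thrombospondin-1, went from 1021 to 2117 CPM (log2 difference 1.05, adjusted p = 1.91e-13, same edgeR test). Spp1, osteopontin, a ligand of Itgav pairs, was the one that fell, from 272 to 161 CPM (log2 difference -0.76, adjusted p = 2.41e-06, same edgeR test). With the inhibitor these genes stood at means of 106, 1796 and 182 CPM. Thbs1 was among the 4 that fell between the ACLP matrices, a call lost when any 1 of 5 libraries was left out (adjusted p up to 0.0910). Ccn1, another matricellular protein, rose least of the 8, by a log2 difference of 0.28 (adjusted p = 0.0185, same edgeR test), and lost its call with DESeq2 (0.0957) and when any 1 of 4 libraries was left out.

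Of 10 laminin chains tested, 4 rose and 1 fell on col1-ACLP, all by less than 0.58 on the log2 scale, against 17.9% of all genes passing. Lamb3 had 0.30 (adjusted p = 5.52e-04, edgeR's quasi-likelihood test) and Lamc1, the gamma chain of most laminins, 0.25 (adjusted p = 0.00121, same edgeR test). Lama4 had 0.15 (adjusted p = 0.0156, same edgeR test), a call lost without col1 replicate 2 (0.0597) and with library size alone (0.102). Lama5 fell by 0.34 on the log2 scale (adjusted p = 0.00332, same edgeR test). With the inhibitor against col1, 1 chain passed, Lamb3, at 0.32 (adjusted p = 5.55e-04, same edgeR test), a share near the 9.13% of all genes.

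On the inner side of the membrane, 17 tail-binding and adhesion proteins were tested, and 4 rose and 3 fell on col1-ACLP, against 17.9% of all genes passing. With the inhibitor against col1, 0 rose and 3 fell (Vcl, Tns1 and Dab2), against 9.13%, and the Tns1 call was lost without col1 replicate 4 (adjusted p = 0.0555). The Vcl and Dab2 calls were not tried with a library left out. Between the ACLP matrices 1 fell, Lims1, a call lost when any 1 of 6 libraries was left out (adjusted p up to 0.115) and with library size alone (0.0748). Lims2, an adaptor of the kinase complex on beta tails, had 0.69 (adjusted p = 8.29e-05, edgeR's quasi-likelihood test), and Tns1, tensin 1, fell by 0.54 on the log2 scale (adjusted p = 2.61e-06, same edgeR test). Lims1 at 0.16 (adjusted p = 0.0247) and Parvb at -0.31 (adjusted p = 0.0338) passed by less, and each call was lost when any 1 of several libraries was left out. Of 4 integrin inactivators, 1, Flna, filamin A, rose by a log2 difference of 0.23 (adjusted p = 1.90e-04, same edgeR test). Of 5 tetraspanins, which bind integrins in the membrane, Cd82 fell by 0.55 (adjusted p = 5.70e-07, same edgeR test) and Cd63 by 0.31 (adjusted p = 1.88e-05) on the log2 scale. The 4 hemidesmosome proteins that act with Itgb4 had log2 differences from -0.57 to 0.11 and adjusted p from 0.226 to 0.916.

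Over all pathway lists, 63 of 74 genes were tested. On col1-ACLP 20 rose and 9 fell, against 17.9% of all genes passing in either direction, and with the inhibitor against col1 8 rose and 7 fell, against 9.13%. Between the inhibitor and col1-ACLP, 1 rose and 5 fell, against 1.48%. The last count depends on single libraries: it ran from 2 to 7 when 1 library was left out.

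**Figure D4:**
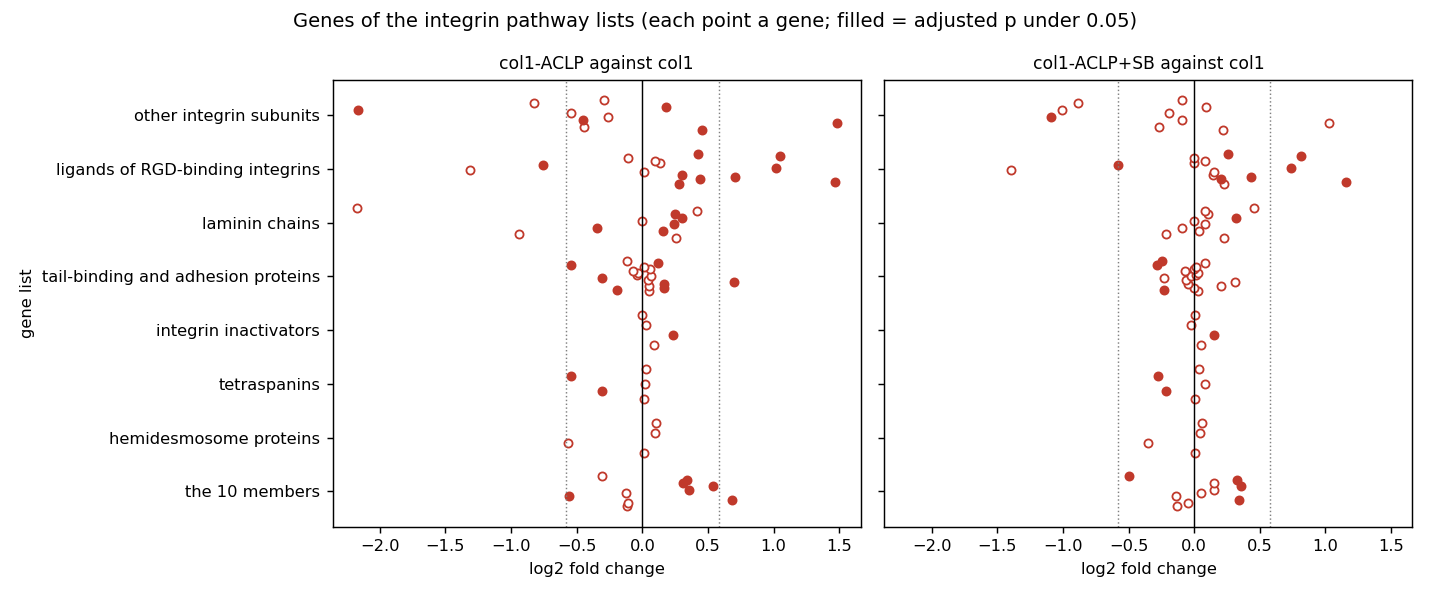
Each point is a tested gene of a list, placed by its log2 fold change from col1 to col1-ACLP (left) or to col1-ACLP+SB (right), filled at an adjusted p under 0.05, with dotted lines at 0.58 in size. The ligands of RGD-binding integrins hold 8 filled points above 0 on the left and 6 on the right.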

How the data were processed

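RNA of 12 libraries, 4 per group, was sequenced from poly(A)-enriched RNA as paired-end reads. The authors mapped the reads with HISAT2 and deposited raw counts of reads per gene, not normalized or filtered, with each gene's length and coordinates. The methods name GRCm39 and the submitters' processing notes mm10, and the coordinates in the table match GRCm39. The counting tool, its strand setting and its handling of multi-mapping reads are not given in the sources used here. The members and gene lists were chosen with earlier results of these data known.

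The deposited counts went into edgeR 4.0.16 under R 4.3.3 (filterByExpr, TMM, glmQLFit, glmQLFTest), in 1 fit of all 12 libraries that had no term but group, and Benjamini-Hochberg adjustment over 16465 genes. Of 56748 genes, 40283 were dropped by the filter. The common dispersion had a square root of 0.153. The study's methods used DESeq2, here an alternative (1.42.0) with limma-voom (limma 3.58.1). The threshold was an adjusted p-value of 0.05, and the study's further threshold on the log2 fold change was 0.58. Standard errors are those implied by the test's F statistic. Replicates of a group differed by more than sampling noise (over 18 pairs, chi-square divided by its degrees of freedom was 7.22 to 19.5), so all were counted separately. Counting error was taken as 100 divided by the square root of the count, in percent. All 10 members are named. From each pathway list, the 2 highest and 2 lowest log2 fold changes among genes that passed in col1-ACLP against col1 are named, plus Itgb1; other genes were named after their values were seen. Genes most like a member in log2 CPM (prior count 2) are named for members past 0.58. Plec, Dst, Col17a1 and Cd151 form the hemidesmosome list. Promoters were read from GRCm39. The test was run on simulated counts with known changes before use. Alternatives were other size factors, filters, tools, thresholds, a fit of the groups compared alone, a replicate block and each library left out in turn. No per-sample column was left unused. The result of 1 further marker list is not reported here.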

Additional observations from a re-analysis of the deposited data

Results flagged for a closer look

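Within each group of 4, a library was marked when its gap to the nearest other library was, as a share of the group's range, over Dixon's 95% critical value. Of 30 groups, 3 were marked, where chance marks about 1 in 20. Itga7 in col1 replicate 1 was at 11.3 CPM, and the other col1 libraries were at 9.69 to 9.96 CPM. Itga7 in col1-ACLP+SB replicate 2 was at 10.8 CPM, with the others at 8.60 to 8.90 CPM. Itgav in col1-ACLP+SB replicate 2 was at 222 CPM, with the others at 269 to 276 CPM. That library was the farthest from its group median for 5 of the 10 subunits (Itga3, Itga6, Itga7, Itgav and Itgb8), and so was col1 replicate 4 (Itga3, Itgav, Itgb3, Itgb5 and Itgb8).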

How the results depend on the processing

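Of 599 log2 fold changes of the 10 subunits under alternatives, 578 kept their direction and their side of the threshold. In col1-ACLP against col1, 6 subunits passed in every alternative tool, filter, scaling and left-out library except with library size alone, where Itga5 passed too, and 1 passed with the threshold of 0.58 and 0 with edgeR's glmTreat against 0.58. In col1-ACLP+SB against col1, 4 passed, 3 to 4 when a library was left out, and 0 with either use of 0.58. In col1-ACLP+SB against col1-ACLP, 1 passed, 2 with no filter, with DESeq2 and with limma-voom, 1 to 2 when a library was left out, and 0 with either use of 0.58. Pathway list genes passing in this comparison numbered 6, 10 with DESeq2, and 2 to 7 when a library was left out. These thresholds are stricter by construction; the cause of the other changes was not tested. Directions turned only for differences that did not pass, and those of Itga3 and Itgb5 were near 0. Those of Itga8 were -0.12, 0.054 and 0.18 in the 3 comparisons, each with a standard error of 0.30. Itga8 turned in col1-ACLP against col1 (0.018 without col1-ACLP replicate 3, range -0.32 to 0.018 over left-out libraries), in col1-ACLP+SB against col1 (-0.059 without col1 replicate 2 and -0.22 without col1-ACLP+SB replicate 3, range -0.22 to 0.19) and between the ACLP matrices (-0.095 without col1-ACLP+SB replicate 3, range -0.095 to 0.37). Between the ACLP matrices, Itga3 turned to 0.011 with library size alone, 0.016 with limma-voom and 0.021, 0.045 and 0.081 without col1-ACLP replicate 3, col1-ACLP replicate 4 and col1-ACLP+SB replicate 2 (range -0.081 to 0.081). Itgb5 turned there to 0.012 with library size alone, and to 0.012 and 0.0063 without col1-ACLP replicate 4 and col1-ACLP+SB replicate 1 (range -0.036 to 0.012). Of 620 log2 fold changes of the named pathway genes that passed, 570 kept their call. The calls lost were those of Ccn1, Lama4, Itga11, Itgal, Lims1, Parvb, and, in comparisons with the inhibitor, Tns1, Flna, Thbs1, Lims1 and Cd82. Itga4, Vcl and Dab2, named after their values were seen, were not among these genes. Library size alone moved the median of all genes by -0.0502, -0.0238 and 0.0264 in the 3 comparisons. The mean of Itga6 on col1-ACLP was 91.2 CPM with TMM and 89.5 CPM with library size alone.

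Same-numbered libraries did not deviate together (correlation -0.0372 to 0.036 over 12 pairs, and -0.0362 to 0.0408 over 36 pairs with other numbers). This gave no sign of pairing by number, but a small shared effect could be missed over all tested genes with 4 libraries per group. With the replicate number as a block, 6, 4 and 1 subunits and 25, 16 and 5 pathway list genes passed in the 3 comparisons, against 29, 15 and 6 pathway list genes without it, and the calls of Itgal and Parvb on col1-ACLP were lost (adjusted p = 0.0641 and 0.0507 in edgeR). Counts were low for Itga8 and Itga3, at 44 to 187 and 111 to 277 per library, and the part of depth in their intervals was not tested.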

Other observations

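Of the 74 genes in the pathway lists, those too low to be tested were the integrin subunits Itga2, Itga9, Itgad, Itgam, Itgax and Itgb6, the ligands Vtn (vitronectin) and Ibsp, the laminin chain Lama1, and the tail-binding proteins Fermt1 and Ilk. Ibsp had 0 counts in every library and Vtn 0 to 11 per library. Itgb6, the epithelial beta partner of Itgav, had 0 to 4 counts per library on col1, 0 to 22 on col1-ACLP and 0 to 17 on col1-ACLP+SB. Ilk, the kinase that binds beta tails and that adherent cells in general express, had 5 to 14, 4 to 9 and 0 to 9 counts. Of its exon bases, 77.4% lie opposite exons of Taf10 and 13.0% opposite those of Rrp8, and how the counting treated reads on overlapping genes is not given in the sources used here.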
